A study of Homo sapiens with 6 samples.

Results

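The 10 genes described here are the EMT transcription factors *SNAI1*, *SNAI2*, *TWIST1*, *TWIST2*, *ZEB1* and *ZEB2*, the mesenchymal filament gene *VIM*, and the epithelial markers *EPCAM*, *KRT8* and *KRT18*. They were found by gene symbol, from a set named with earlier results of these data known, and all 10 were found among the 63140 genes listed in each library. PolyA RNA was sequenced from BT-549 cells, a human triple negative breast cancer line labelled as wild type and as epithelial, after 24 h in adipocyte-conditioned medium (ACM, 3 libraries) or unconditioned medium (UCM, 3 libraries). ACM was an insulin, oleate and albumin medium that had been kept on OP9 mouse cells while they became adipocytes. The labels give ACM at 50%, whereas the supplementary methods describe undiluted ACM for sequencing, so the dose is uncertain. The formula of UCM is not given in the sources used here, so the effect of adipocyte secretions and that of the base medium cannot be told apart. All 6 cultures came from 1 cell line, and the p-values below measure only the spread between these cultures, which may be technical.

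Epithelial-mesenchymal transition (EMT) is the switch by which epithelial cells loosen their junctions, replace keratin filaments with vimentin and gain motility. The SNAIL and ZEB families are zinc finger repressors that bind E-box motifs in the promoters of epithelial genes, and the TWIST family are basic helix-loop-helix (bHLH) factors that act with E-protein partners. EPCAM is a membrane glycoprotein of simple epithelia, and KRT8 and KRT18 pair to form their keratin filaments.

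Library totals were between 17135270 and 21053214 expected counts, and the filter on low counts kept 14451 genes for the test. UCM replicate 1 stood apart from the other 2 UCM libraries. Over all genes, the chi-square of counts per degree of freedom was 21.8 against UCM replicate 2 and 20.2 against UCM replicate 3, compared with 2.32 between UCM replicates 2 and 3. The 3 ACM libraries differed from each other by 13.3 to 19.0 on the same measure, least between ACM replicates 2 and 3. In each group replicate 1 had the highest total, at 21053214 in ACM and 20975771 in UCM. It also had the most genes with a count, at 20906 and 20889. Results that rest on UCM replicate 1 are given with and without it. Leaving it out alone keeps ACM replicate 1 in the comparison.

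The 250 bases before the start of the canonical transcript (GRCh38 sequence, GENCODE 44 starts) are shown for *ZEB1* and *VIM*, as a window with and a window without the E-box letters bound by SNAIL and ZEB factors. The letters searched were CAGGTG and CACCTG, which are the same motif read on the 2 strands, and they are in capitals below. Each is written 5′ to 3′ on the strand of the gene.
ZEB1, chr10:31318966-31319215, + strand: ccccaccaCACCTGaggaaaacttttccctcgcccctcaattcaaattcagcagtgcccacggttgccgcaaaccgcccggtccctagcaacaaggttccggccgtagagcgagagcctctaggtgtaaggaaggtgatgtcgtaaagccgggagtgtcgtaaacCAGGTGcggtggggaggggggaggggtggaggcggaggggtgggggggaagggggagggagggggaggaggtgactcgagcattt
VIM, chr10:17227991-17228240, + strand: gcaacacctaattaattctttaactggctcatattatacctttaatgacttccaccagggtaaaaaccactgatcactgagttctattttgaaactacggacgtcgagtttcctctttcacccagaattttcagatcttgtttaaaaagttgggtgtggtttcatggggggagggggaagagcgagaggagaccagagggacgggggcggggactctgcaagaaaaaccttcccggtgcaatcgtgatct

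*ZEB1* held 2 copies, which began 242 and 85 bases before the start. Among the windows of all 19962 protein-coding genes, 17.43% held the motif at least once and 2.49% held it at least 2 times. The windows of *TWIST1*, *TWIST2*, *ZEB2* and *SNAI2* had no match. *CDH1*, which encodes E-cadherin, held 2 copies, at 80 and 29 bases before its start. A match describes these letters only, since binding was not measured.

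The level of these genes was set by TPM, which is scaled by gene length and library and allows genes to be compared. *VIM* was among the most abundant transcripts of the cells, at rank 34 of 63140 genes with a mean of 2788 TPM over the 6 libraries. *TWIST1* followed at 227 TPM and rank 704, and its lowest library (179 TPM) lay above the highest library of every other EMT factor. *TWIST2* (34.5 TPM) and *SNAI2* (32.4 TPM) came next with overlapping libraries. *ZEB1* (20.3 TPM) and *ZEB2* (17.8 TPM) also overlapped each other, and the highest *ZEB1* library (27.5 TPM) reached above the lowest *SNAI2* library (26.0 TPM). *SNAI1* was the least abundant of the 6 factors at 9.53 TPM. All 6 factors and *VIM* were thus read in every library.

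The 3 epithelial markers were near the limit of detection. *KRT18* had a mean of 0.492 TPM, *KRT8* of 0.347 TPM and *EPCAM* of 0.0183 TPM, and the first 2 overlapped each other. The label calls the cells epithelial, but these 3 defining markers stayed under 1 TPM in all 6 libraries, as did *CDH1* with 0.460, 0.240 and 0.45 TPM in ACM and 0.310, 0.730 and 0.440 TPM in UCM. The level of *KRT8* also depends on how reads were divided between it and its pseudogenes, which are described below. In a bulk sample, fewer cells of a type and less RNA per cell cannot be told apart.

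**Figure D1:**
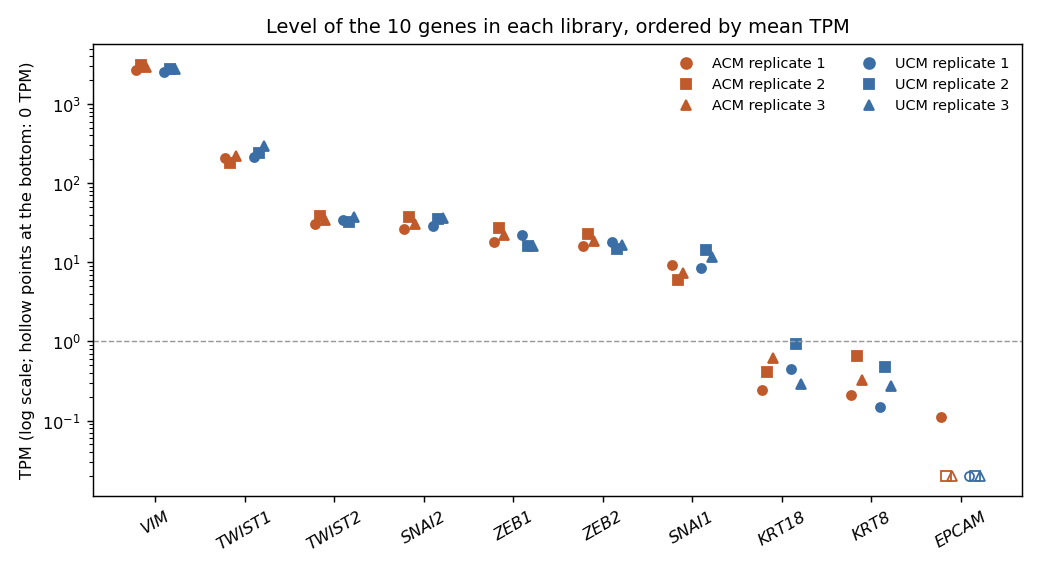
TPM of the 10 genes in each library on a log axis, ordered by mean level, with ACM in orange, UCM in blue and the replicate number as the symbol; hollow points are libraries at 0 TPM and the dashed line is 1 TPM. *VIM* and the 6 factors lie above 5 TPM in every library, and the 3 epithelial markers lie under 1 TPM.

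Of the 10 genes, 7 passed the filter and were tested for a difference between ACM and UCM. None of the 7 reached an adjusted p of 0.05 by edgeR's quasi-likelihood test with Benjamini-Hochberg adjustment, whereas 5.56% of all tested genes did. DESeq2 also called 0 of the 7. At an unadjusted p of 0.05 edgeR counted 4 of them, against 23.3% of all tested genes, with *ZEB1* and *ZEB2* higher in ACM and *SNAI1* and *TWIST1* lower. The groups did not overlap for 1 of the 7, *ZEB2*, against 28.9% of all tested genes. The median absolute log2 fold change was 0.30 over the 7 genes and 0.16 over all tested genes.

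Among the SNAIL family, *SNAI1* encodes Snail, the short-lived repressor of *CDH1*. In GRCh38, *SNAI1* lies on chromosome 20 at 49982980 to 49988886 (plus strand). Its values per library, replicates 1 to 3 in each group, were 9.40, 6.13 and 7.28 CPM in ACM and 8.23, 14.4 and 11.7 CPM in UCM, where CPM is the count scaled to the library's total by the TMM method. The UCM libraries 2 and 3 lay above every ACM library, while UCM replicate 1 lay inside the ACM range. The log2 fold change was -0.58 (SE 0.23, 95% interval -1.10 to -0.074, adjusted p = 0.161, unadjusted p = 0.0291) by edgeR's quasi-likelihood test, a difference that did not pass. Without UCM replicate 1 it was -0.77 with an edgeR adjusted p of 0.0307, in a fit that called 8.92% of all genes. With all 6 libraries and every gene of at least 1 count kept, it was -0.58 (edgeR adjusted p = 0.0130). The call thus moved with the libraries and with the filter.

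*SNAI2* encodes Slug, the SNAIL member linked to basal mammary cells and migration, and lies on chromosome 8. It measured 35.9, 44.6 and 37.8 CPM in ACM and 38.9, 48.9 and 48.5 CPM in UCM. The groups overlapped, with UCM replicate 1 again the lowest of its group and ACM replicate 2 the highest of the ACM libraries. By edgeR the log2 fold change was -0.20 (SE 0.11, 95% interval -0.46 to 0.050, adjusted p = 0.323, unadjusted p = 0.104), and it was negative in all 15 alternative settings. Its size moved from -0.067 with effective length offsets and -0.10 by limma-trend on TPM to -0.30 without ACM replicate 2 or UCM replicate 1, and without ACM replicate 1 it was -0.13.

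*TWIST1*, the most abundant of the 6 factors, measured 149, 124 and 162 CPM in ACM and 152, 179 and 205 CPM in UCM. In GRCh38, *TWIST1* lies on chromosome 7 at 19020991 to 19117636 (minus strand). Only ACM replicates 1 and 2 lay below the whole UCM group, and UCM replicate 1 lay within the ACM range. With a log2 fold change of -0.30 (SE 0.13, 95% interval -0.60 to -0.0033, adjusted p = 0.210, unadjusted p = 0.0480) by edgeR, it did not pass. Its values without 1 library ran from -0.39 to -0.18, with edgeR adjusted p-values from 0.0736 to 0.551.

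*TWIST2*, the close paralog of *TWIST1*, measured 21.4, 28.2 and 23.9 CPM in ACM and 23.6, 23.0 and 25.5 CPM in UCM. In GRCh38, *TWIST2* lies on chromosome 2 at 238848032 to 238910534 (plus strand). The UCM libraries lay inside the ACM range. Its log2 fold change was 0.029 (SE 0.11, 95% interval -0.22 to 0.28, adjusted p = 0.910, unadjusted p = 0.803) by edgeR, and the sign was negative in 4 of 15 alternatives, so no direction is given.

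*ZEB1*, a zinc finger and homeodomain repressor of *CDH1* and of the miR-200 genes, measured 55.6, 80.4 and 61.6 CPM in ACM and 58.4, 45.7 and 45.5 CPM in UCM. In GRCh38, *ZEB1* lies on chromosome 10 at 31318495 to 31529814 (plus strand). ACM replicates 2 and 3 lay above the whole UCM group, and UCM replicate 1 lay within the ACM range. By edgeR the log2 fold change of 0.40 (SE 0.15, 95% interval 0.043 to 0.75, adjusted p = 0.169, unadjusted p = 0.0321) did not pass. It ran from 0.23 to 0.54 when 1 library was left out.

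*ZEB2*, the paralog of *ZEB1*, measured 49.6, 65.7 and 51.7 CPM in ACM and 45.3, 42.1 and 45.1 CPM in UCM. In GRCh38, *ZEB2* lies on chromosome 2 at 144364364 to 144521057 (minus strand). All 3 ACM libraries lay above all 3 UCM libraries. The log2 fold change was 0.33 (SE 0.11, 95% interval 0.093 to 0.57, adjusted p = 0.1001, unadjusted p = 0.0110) by edgeR, the smallest adjusted p of the 7 genes and still above the threshold. With 1 library left out it ran from 0.20 (edgeR adjusted p = 0.298), without ACM replicate 2, to 0.42 (edgeR adjusted p = 0.0676), without ACM replicate 1, and by limma-trend on TPM it was 0.22 to 0.23. In TPM the group means were 19.3 ± 3.36 TPM in ACM and 16.3 ± 1.65 TPM in UCM (SD, n = 3 each), and the groups overlapped on that scale, since UCM replicate 1 had 17.9 TPM and ACM replicate 1 had 16.2 TPM.

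*VIM*, which encodes the main intermediate filament of mesenchymal cells, measured 2804, 3550 and 3141 CPM in ACM and 2733, 3038 and 3010 CPM in UCM. In GRCh38, *VIM* lies on chromosome 10 at 17228241 to 17237593 (plus strand). The groups overlapped, with UCM replicate 1 the lowest and ACM replicate 2 the highest of the 6 libraries. The log2 fold change was 0.11 (SE 0.096, 95% interval -0.10 to 0.33, adjusted p = 0.533, unadjusted p = 0.267) by edgeR. Leaving out 1 library moved it between 0.022 and 0.20, with edgeR adjusted p-values from 0.214 to 0.937.

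**Figure D2:**
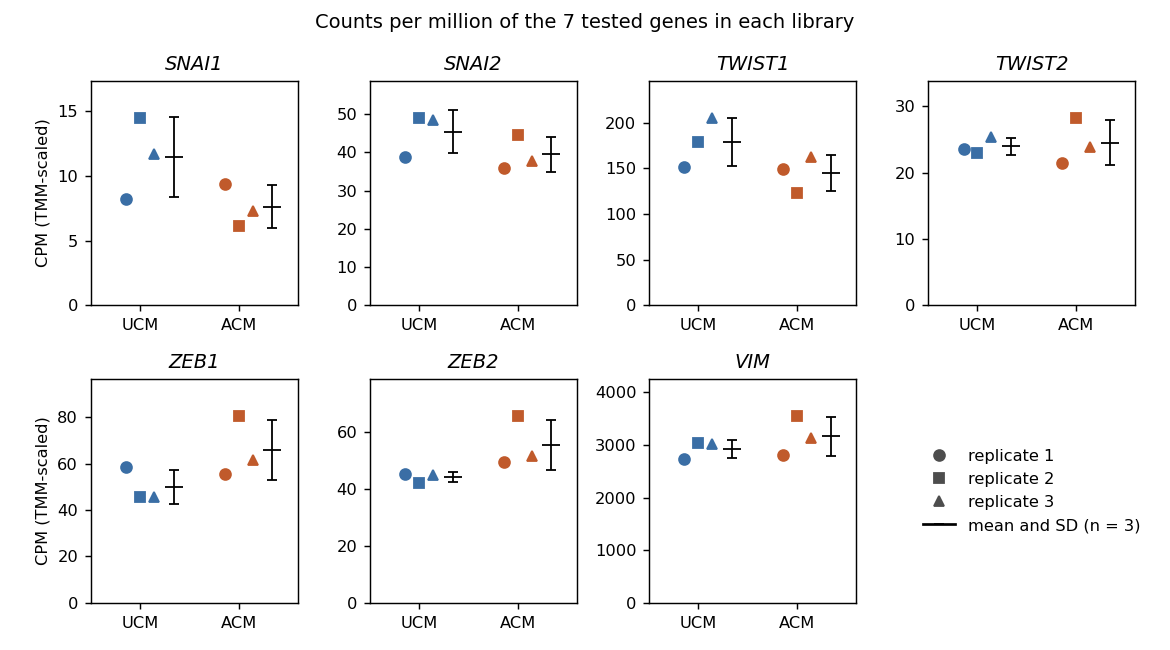
CPM of the 7 tested genes in each library, with UCM in blue, ACM in orange, the replicate number as the symbol, and the mean and SD of 3 libraries beside each group; every y axis starts at 0. Only for *ZEB2* do the groups not overlap, and UCM replicate 1 lies within the ACM range for *SNAI1*, *TWIST1* and *ZEB1*.

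In *SNAI1*, *TWIST1* and *ZEB1* the groups no longer overlapped once UCM replicate 1 was left out. The same held without ACM replicate 1 for *SNAI1* and *ZEB1*, and without ACM replicate 3 for *TWIST1*. Without UCM replicate 1 edgeR called 1 of the 10 genes, *SNAI1*, against 8.92% of all genes tested in that fit. A comparison of replicates 2 and 3 alone, chosen after the data had been seen, called 3, with log2 fold changes of -0.95 for *SNAI1* (adjusted p = 0.00847), 0.65 for *ZEB1* (adjusted p = 0.0132) and 0.44 for *ZEB2* (adjusted p = 0.0356). Of all genes tested in that comparison, 12.1% were called. With every gene of at least 1 count kept in the fit, 4 were called, *SNAI1*, *TWIST1*, *ZEB1* and *ZEB2*, against 6.76% of all genes. Their fold changes were nearly the same as with the filter, but the SEs were smaller, at 0.091 against 0.15 for *ZEB1*. ACM replicate 2 had the highest *ZEB1*, *ZEB2*, *VIM* and *TWIST2* and the lowest *SNAI1* and *TWIST1* of the 6 libraries. The directions for *SNAI1*, *SNAI2*, *TWIST1*, *ZEB1*, *ZEB2* and *VIM* were the same in all 15 alternative settings.

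**Figure D3:**
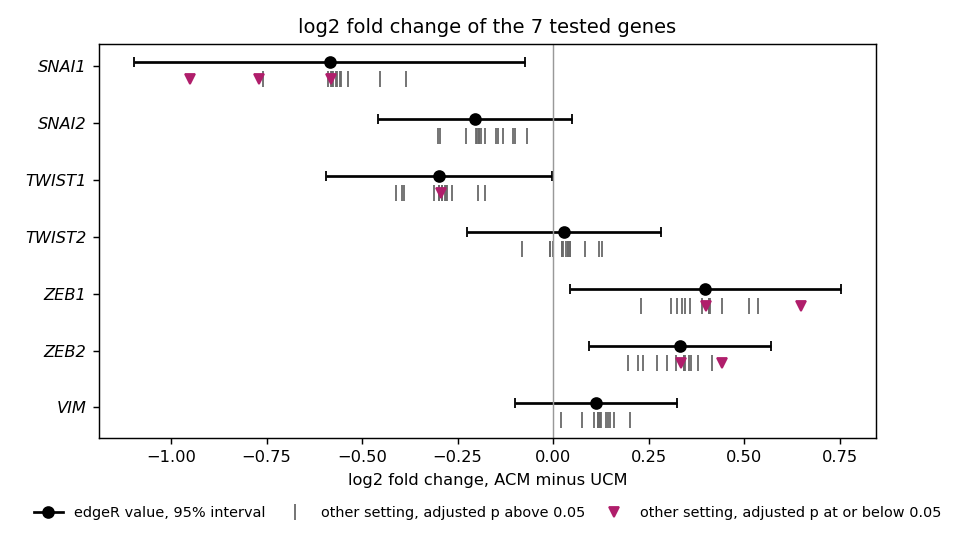
log2 fold change of ACM minus UCM for the 7 tested genes, with the edgeR value and its 95% interval in black, and each of 15 other settings below it as a grey tick, or as a triangle where its adjusted p was at or below 0.05. Triangles appear for *SNAI1*, *TWIST1*, *ZEB1* and *ZEB2* only, and the ticks of *TWIST2* lie on both sides of 0.

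The epithelial markers were too low for the test, so their counts are given. In GRCh38, *EPCAM* lies on chromosome 2 at 47345158 to 47387601 (plus strand). *EPCAM* had counts of 2, 0 and 0 in ACM and 0, 0 and 0 in UCM, which is at or under the limit of 3 counts in each group, and no fold is given. *KRT8* had counts of 2, 7 and 6 in ACM and 3, 3 and 4 in UCM, or 15 against 10 counts in all. Scaled for library totals, the ratio of ACM to UCM was 1.48 with an exact 95% interval of 0.622 to 3.69. *KRT18* had counts of 4, 6 and 9 in ACM and 8, 14 and 4 in UCM, or 19 against 26 counts, with a ratio of 0.721 and an interval of 0.377 to 1.35. Both intervals include 1 and cover counting error only, so a difference was not detectable at this depth.

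The keratin counts are uncertain, because both genes have processed copies across the genome and reads can be shared between them. The annotation lists 51 pseudogenes of *KRT8*, of which 13 had counts, and together these held 613 counts against 25 for *KRT8* itself. Among them *KRT8P12* was counted 76, 44 and 48 times in the ACM libraries and 89, 70 and 66 times in the UCM libraries, with a log2 fold change of -0.44 that did not pass edgeR's test (adjusted p = 0.282). For *KRT18*, 11 of 68 pseudogenes had counts, 50 in all against 45 for the gene. When each keratin was summed with its pseudogenes, the log2 fold change was -0.12 for *KRT8* and -0.66 for *KRT18* (edgeR adjusted p = 0.329 for *KRT18*). The sum thus turned the sign for *KRT8*. Its summed level was 4.78 to 6.91 CPM per library, so the low level of *KRT8* alone depends on how the reads were divided. For *KRT18* alone the log2 ratio of mean CPM was -0.42 with all libraries, 0.15 without UCM replicate 2, -0.14 without ACM replicate 1 and -0.79 without ACM replicate 3, and no direction is given for either keratin. The 2 genes also overlap on opposite strands of chromosome 12, at 52897187 to 52949954 for *KRT8* and 52948871 to 52952906 for *KRT18*.

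Genes opposite to the factors were also checked, since the strand setting of the counting is not given and reads of overlapping genes then cannot be told apart. *ZEB1-AS1*, which lies opposite to the start of *ZEB1*, had 978 counts against 6601 for *ZEB1*, and its log2 fold change of 0.19 did not pass (edgeR adjusted p = 0.620). *VIM-AS1* held 137 counts against 346007 for *VIM*. *ZEB2-AS1* held 10 counts against 5678 for *ZEB2*. The transcript ENSG00000232821 opposite *TWIST1* had 19 to 50 counts per library and a log2 fold change of -0.45 (edgeR adjusted p = 0.465). Each of these antisense counts was lower than that of the gene it overlaps.

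Pairs of related genes were compared as log2 ratios of TPM within each library, in an exact two-sided permutation test over the 20 arrangements of 6 libraries, which cannot give a p below 0.10. The *ZEB2* to *ZEB1* ratio was -0.22 ± 0.066 in ACM and -0.13 ± 0.17 in UCM (SD, n = 3 each, exact p = 0.60). The *SNAI2* to *SNAI1* ratio was 2.06 ± 0.60 in ACM and 1.57 ± 0.24 in UCM (exact p = 0.30). The *KRT8* to *KRT18* ratio, with few counts behind it, was -0.15 ± 0.79 in ACM and -0.90 ± 0.75 in UCM (exact p = 0.30). The *VIM* to *KRT18* ratio was 12.85 ± 0.62 in ACM and 12.39 ± 0.85 in UCM (exact p = 0.60). Adjusted over the 4 ratios, every p was 0.60, and the balance between the paralogs was not shown to differ between media.

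The wider EMT program was read through lists of genes around the 10. Of 14 other EMT transcription factors, 10 were tested and 0 passed edgeR's test, with 0 at an unadjusted p of 0.05 and 0 by DESeq2. Over all genes tested, these shares were 5.56%, 23.3% and 4.50%, so few calls are to be looked for in a list this short. *TBX3*, a T-box repressor, and *FOXC1*, a forkhead factor, were the most abundant, at 30.4 and 30.9 TPM. Their log2 fold changes were 0.36 (SE 0.16, adjusted p = 0.234) and 0.018 (SE 0.11, adjusted p = 0.945) by edgeR, with *FOXC1* changing sign in 4 of 15 alternatives. The list median was 0.16, against -0.011 over all tested genes.

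Of 25 partners and modifiers of the EMT factors, 3 fell in ACM by edgeR's test, against 2.21% of all tested genes, and 0 rose. *ID2*, an HLH protein without a DNA-binding region that sequesters the E-protein partners of bHLH factors, measured 59.2, 44.5 and 68.2 CPM in ACM and 91.5, 123 and 132 CPM in UCM. Every ACM library lay below every UCM library, and the log2 fold change was -1.01 (SE 0.19, adjusted p = 0.0335). The other 2 were *EZH2*, the histone H3K27 methyltransferase, at -0.31 (SE 0.070, adjusted p = 0.0335), and *AJUBA*, a LIM protein that bridges Snail to corepressors, at -0.58 (SE 0.14, adjusted p = 0.0473). The list median was -0.066, and DESeq2 called 5 of the list, against 4.50% of all genes in its fit. *EZH2* lost its call without ACM replicate 1, 2 or 3 or UCM replicate 2 or 3 (edgeR adjusted p = 0.0578, 0.0964, 0.0906, 0.143 and 0.105). *AJUBA* lost it without ACM replicate 1 or 3 or UCM replicate 1, 2 or 3 (edgeR adjusted p = 0.0630, 0.0560, 0.0760, 0.167 and 0.182), and the losses of *ID2* are given next.

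The other inhibitors of DNA binding were also lower in ACM without overlap, though edgeR called only *ID2*. Groups did not overlap, in either direction, for 28.9% of all tested genes. *ID1* measured 253, 243 and 248 CPM in ACM and 257, 367 and 335 CPM in UCM and *ID3* 334, 351 and 346 CPM in ACM and 358, 460.4 and 437 CPM in UCM, with log2 fold changes of -0.36 (SE 0.12, adjusted p = 0.107) and -0.28 (SE 0.090, adjusted p = 0.0950) by edgeR. *ID4*, chosen after its values were seen, had a log2 fold change of -0.59 (SE 0.16, adjusted p = 0.0690). All 4 *ID* genes kept a negative sign in all 15 alternatives, which reuse the same libraries. As their groups did not overlap, leaving libraries out could hardly turn the sign, so its constancy adds little. The ranges were -0.50 to -0.25 for *ID1*, -1.16 to -0.86 for *ID2*, -0.38 to -0.21 for *ID3* and -0.77 to -0.43 for *ID4*. Without UCM replicate 1, *ID1*, *ID3* and *ID4* passed (edgeR adjusted p = 0.00213, 0.00750 and 0.00164), in a fit that called 8.92% of all genes tested. Without UCM replicate 2, UCM replicate 3, ACM replicate 1 or ACM replicate 2, *ID2* no longer passed (edgeR adjusted p = 0.143, 0.119, 0.0715 and 0.0558). The E-protein genes *TCF3*, *TCF4* and *TCF12*, also named after their values were seen, had log2 fold changes of -0.028, 0.16 and 0.095, and none passed.

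Epithelial junction genes held 1 call, which was lower in ACM, among 18 tested of 27, a share of 5.56% that is equal to the 5.56% of all tested genes, and 0 without ACM replicate 2, UCM replicate 2 or UCM replicate 3. *CLDN1*, the claudin with the highest level in the list, measured 107, 194 and 135 CPM in ACM and 100.1, 77.0 and 73.2 CPM in UCM. The groups did not overlap, but the log2 fold change of 0.80 (SE 0.24, adjusted p = 0.120) did not pass edgeR's test. *CDH1* had a log2 fold change of -0.56 (SE 0.45, adjusted p = 0.504) by edgeR at a level under 1 TPM. The list median was -0.065.

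Regulators and markers of the epithelial program were mostly near 0. Of 31 genes, 22 had a mean under 1 TPM, 10 were tested, and 0 passed edgeR or DESeq2. At an unadjusted p of 0.05 edgeR counted 3 of the 10, against 23.3% of all tested genes, which is also the background for the counts of this kind in the lists that follow. *CD24* and *MUC1*, membrane glycoproteins of epithelia, were the most abundant at 134 and 52.1 TPM. *CD24* had a log2 fold change of -0.13 (SE 0.14, adjusted p = 0.633) and *MUC1* of 0.43 (SE 0.14, adjusted p = 0.115) by edgeR, and the value of *MUC1* turned to -0.028 with effective lengths as offsets. Among 29 other keratins, 13 had no count in any library and 5 were tested, with 0 passing edgeR or DESeq2 and 1 at an unadjusted p of 0.05. *KRT80* (26.9 TPM) and *KRT10* (17.9 TPM) were the most abundant, well above *KRT8* and *KRT18*.

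Mesenchymal markers were the list with the most calls. Of 39 tested, 6 rose and 0 fell in ACM by edgeR, against 3.35% of all tested genes that rose, and the list median was 0.21. *COL5A2*, a fibrillar collagen chain, measured 982, 970.4 and 897 CPM in ACM and 653, 666 and 691 CPM in UCM, and its log2 fold change of 0.50 (SE 0.069, adjusted p = 0.00401) also passed with any 1 library left out. *TNC*, the matrix protein tenascin C, measured 337, 436 and 288 CPM in ACM and 159, 145 and 142 CPM in UCM, a log2 fold change of 1.25 (SE 0.14, adjusted p = 0.00497). Every ACM library was above every UCM library for both genes. *MMP2*, a gelatinase, had 0.75 (SE 0.14, adjusted p = 0.0212), and the collagen VI chains *COL6A2* and *COL6A1* had 0.46 (SE 0.10, adjusted p = 0.0304) and 0.40 (SE 0.093, adjusted p = 0.0349). The sixth was *NT5E*, the ectonucleotidase CD73, named after its values were seen, at 1.15 (SE 0.24, adjusted p = 0.0479). *MMP2* lost its call without UCM replicate 2 or 3 (edgeR adjusted p = 0.0986 and 0.0795). *COL6A2* and *COL6A1* lost theirs without ACM replicate 1 or 2 or UCM replicate 2 or 3, with edgeR adjusted p-values of 0.0665 to 0.135 and 0.0749 to 0.155. *NT5E* lost its call without ACM replicate 3 or any 1 UCM library, with edgeR adjusted p-values of 0.0519 to 0.189.

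The cadherin and fibronectin markers did not pass. *CDH2*, which encodes N-cadherin, measured 187, 178 and 188 CPM in ACM and 205, 178 and 173 CPM in UCM, with a log2 fold change of -0.0089 (SE 0.076, adjusted p = 0.961) by edgeR whose sign turned in 7 of 15 alternatives. *FN1*, fibronectin, measured 1374, 1140 and 1125 CPM in ACM and 1297, 868 and 884 CPM in UCM, and UCM replicate 1 lay above ACM replicates 2 and 3. Its log2 fold change was 0.26 (SE 0.17, adjusted p = 0.417) by edgeR and 0.48 (adjusted p = 0.0107) without UCM replicate 1. *TPM2* and *SPARC*, a tropomyosin and a matrix glycoprotein, were the most abundant of the list at 1802 and 1726 TPM, with log2 fold changes of -0.32 (SE 0.091, adjusted p = 0.0652) and -0.12 (SE 0.12, adjusted p = 0.599) by edgeR. *TPM2* passed without UCM replicate 1 (-0.36, edgeR adjusted p = 0.0364).

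Counts of calls over the 9 lists changed when 1 library was left out. Such a fit also has fewer libraries, and that effect cannot be told apart from dependence on the library removed. They numbered 10 with all 6 libraries, 6 without ACM replicate 1, 5 without ACM replicate 2, 7 without ACM replicate 3, 20 without UCM replicate 1, and 2 without UCM replicate 2 or UCM replicate 3. Among mesenchymal markers they were 6 with all libraries, 10 without UCM replicate 1, 4 without ACM replicate 2 and 2 without UCM replicate 2 or UCM replicate 3. Among the partners and modifiers they were 3 with all libraries, 6 without UCM replicate 1, 1 without ACM replicate 2 or ACM replicate 3, and 0 without ACM replicate 1, UCM replicate 2 or UCM replicate 3. Among the other EMT transcription factors 1 was called without UCM replicate 1, and among the other filament genes 2. The calls over all genes moved too, from 804 (5.56%) to 1310 (8.92%) without UCM replicate 1 and to 195 (1.32%) without UCM replicate 2.

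**Figure D4:**
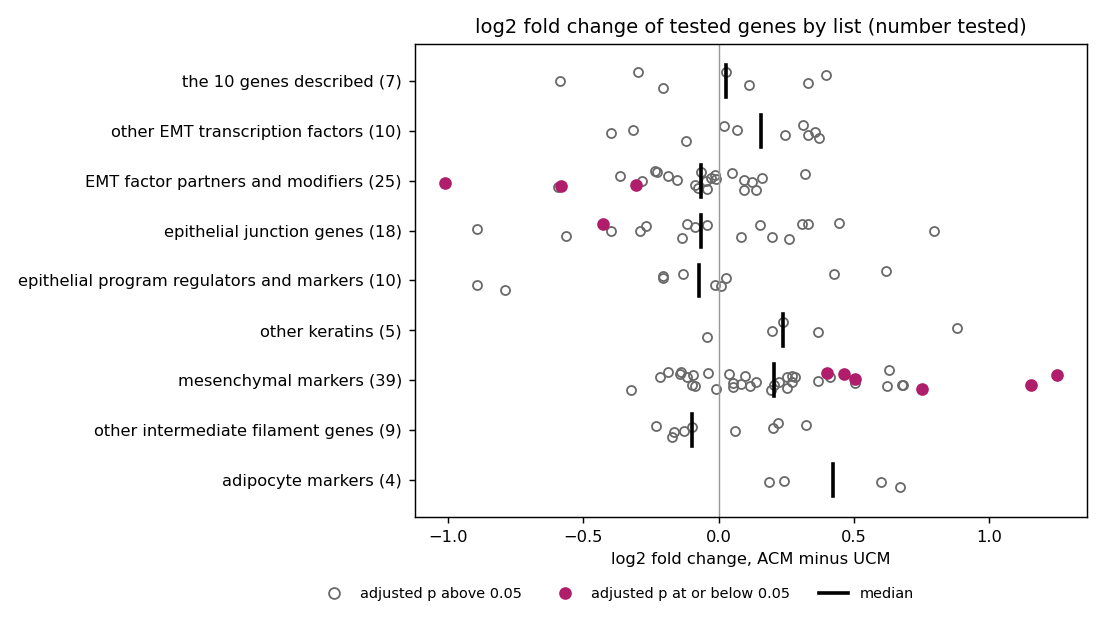
log2 fold change of ACM minus UCM for the tested genes of each list, with the number tested in brackets, filled points where the adjusted p was at or below 0.05 and a bar at the median. The 10 calls lie among EMT factor partners (3 lower), junction genes (1 lower) and mesenchymal markers (6 higher), and none among the 10 genes described.

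Intermediate filament genes other than keratins and *VIM* held 0 calls among 9 tested by edgeR and by DESeq2, with 1 at an unadjusted p of 0.05. The lamin genes *LMNA* (562 TPM) and *LMNB1* (146 TPM) were the most abundant, with log2 fold changes of -0.23 (SE 0.076, adjusted p = 0.103) and -0.17 (SE 0.076, adjusted p = 0.225) by edgeR. *LMNA* passed without UCM replicate 1 (-0.29, edgeR adjusted p = 0.0320). Lamins line the nucleus, and at 2788 TPM the level of *VIM* was above that of every gene of this list.

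Markers of other cell types were read beside these results. Of 14 adipocyte markers, 6 had no count in any library, among them *ADIPOQ*, *LEP* and *CIDEC*, which define mature adipocytes. *FABP4* had at most 2 counts in any library. The list summed to 17.3 to 19.96 TPM in ACM and 12.8 to 17.6 TPM in UCM, most of it *PPARG* and *CFD*. *PPARG*, the adipogenic nuclear receptor, had a log2 fold change of 0.24 (SE 0.15, adjusted p = 0.365) and *CFD* of 0.67 (SE 0.29, adjusted p = 0.196), and 0 of 4 tested passed edgeR or DESeq2, with 1 at an unadjusted p of 0.05. None of the 10 blood and endothelial markers passed the filter, and their sum was at most 1.07 TPM, with *CD14* and *PTPRC* the highest. The part of other cells in the results was not tested.

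The 3′ ends of *ZEB1* and *ZEB2* are known targets of the miR-200 family, so the seeds of this family are shown (RefSeq sequences, GRCh38.p14, 5′ to 3′, with seed bases 2 to 8 in capitals). The first 3 share 1 seed and the last 2 share another.
hsa-miR-200b-3p, chr1:1167160-1167181, + strand: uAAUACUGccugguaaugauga
hsa-miR-200c-3p, chr12:6963742-6963764, + strand: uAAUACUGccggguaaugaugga
hsa-miR-429, chr1:1169055-1169076, + strand: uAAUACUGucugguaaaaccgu
hsa-miR-200a-3p, chr1:1167916-1167937, + strand: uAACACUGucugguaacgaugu
hsa-miR-141-3p, chr12:6964155-6964176, + strand: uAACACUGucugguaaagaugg

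The letters that pair with these seeds are CAGTATT and CAGTGTT. The *ZEB1* 3′ UTR of 2540 bases held 6 and 3 of them, 9 in all, and the *ZEB2* 3′ UTR of 5370 bases held 5 and 4, also 9. Of 1214 and 571 other 3′ UTRs whose length was within 10% of these, 0.0% held as many, with medians of 0 and 1. *SNAI2* held 1 match, and *SNAI1*, *TWIST1*, *TWIST2*, *VIM*, *EPCAM*, *KRT8* and *KRT18* held 0. *MIR200CHG*, the host transcript of miR-200c and miR-141, had 0 counts in all 6 libraries, which allows up to 0.142 to 0.175 CPM per library. Mature miRNAs are not measured by polyA libraries, and a match says nothing of regulation in these cells.

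The tested genes whose CPM followed each factor most closely over the 6 libraries were found by Pearson's r of log2 CPM. For *ZEB1* they were *DCBLD2* (r = 0.996) and *RELB* (r = 0.994), an NF-κB subunit, and for *ZEB2* the basement membrane collagen *COL4A5* and the kinase *TNIK* (r = 0.997 for both). For *SNAI1* they were *EGLN2*, an oxygen-sensing prolyl hydroxylase (r = 0.997), and *S100A13* (r = 0.990), and for *SNAI2* the ribosomal protein *RPL30* (r = 0.995) and *PLBD2* (r = 0.993). For *TWIST1* they were the mitochondrial import gene *SAMM50* (r = 0.994) and the kinase *STK24* (r = 0.990), and for *TWIST2* *UQCRHL* (r = 0.988) and *MSANTD3* (r = 0.970). For *VIM* they were *GAS1RR* and *PLBD1* (r = 0.992 for both). None of these 14 genes passed edgeR's test between ACM and UCM, against 5.56% of all tested genes. They were picked for following genes that did not pass, so this adds nothing about the media. With 14451 genes and 6 libraries that share media groups and depth, values this high are a description of likeness only.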

How the data were processed

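PolyA RNA of BT-549 cells was sequenced in pairs of 150 bases from 3 ACM and 3 UCM cultures. Per the labels, the authors used Trim Galore, STAR and RSEM on GRCh38 (hg38); versions, the annotation and the strand setting are not given in the sources used here. The authors deposited RSEM expected counts per gene, which divide reads that fit several genes or transcripts between them, TPM scaled by each library's effective length, and the effective lengths. FPKM and a deposited table of the authors' DESeq2 fold changes and p-values were not used.

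Of 63140 gene identifiers with version, 61547 matched GENCODE 44, which gave symbols and positions, and 217 of 218 listed symbols were found. Rounded expected counts were tested with edgeR 4.0.16 in R 4.3.3 (filterByExpr, TMM scaling, robust quasi-likelihood test, medium as the only term), with Benjamini-Hochberg adjustment over 14451 genes and a threshold of 0.05. Total counts of 17135270 to 21053214 per library and a biological coefficient of variation of 0.115 set the precision. In simulated data the test called 70 of 100 genes changed 2-fold and 96 of 100 changed 4-fold. Changes under 2-fold, as in the 7 tested genes, were not simulated. Alternatives were DESeq2 1.42.0, RLE scaling, 2 other filters, effective length offsets, limma 3.58.1 (limma-trend on log2 TPM plus 1 or 0.1), the replicate number as a block, and each library left out. A comparison without both replicates numbered 1 was added after the data had been seen.

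The 10 genes, the lists and the tests were chosen with earlier results of these data known. Named genes were the 10 genes, *CDH1*, *CDH2* and *FN1*, up to 5 called genes and the 2 most abundant genes of each list, antisense genes and pseudogenes of the 10, and the 2 closest profiles of each tested gene. Intervals for *KRT8* and *KRT18* are exact Clopper-Pearson and, like the floor of 3 counts, cover counting error only. The called gene of the junction list and the promoter windows of the other 4 genes are not reported here.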

Additional observations from a re-analysis of the deposited data

How the results depend on the processing

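With 3 libraries a group, none of the 7 tested genes passed, and that does not show that they were equal between media. The keratins and *EPCAM* had too few counts for any test. The direction of each tested gene other than *TWIST2* was the same in its 15 alternatives, and *SNAI2*, *TWIST2* and *VIM* passed in none. The cause of the changes below was not tested.

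Of the 10 genes, 4 were called with every gene of at least 1 count in the fit, at log2 fold changes of -0.58 for *SNAI1*, -0.29 for *TWIST1*, 0.40 for *ZEB1* and 0.34 for *ZEB2* (edgeR adjusted p = 0.0130, 0.00723, 0.000471 and 0.00811). Without both replicates numbered 1, 3 were called, *SNAI1* at -0.95, *ZEB1* at 0.65 and *ZEB2* at 0.44. The shares of all genes called under these 2 settings were 6.76% and 12.1%. With 1 library left out, the count ran from 0 to 1 and *SNAI1* from -0.77 to -0.38. *TWIST2* turned to -0.0087 and -0.0084 by limma-trend on log2 TPM plus 0.1 and plus 1, and without 1 library ran from -0.082 to 0.13.

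Over the lists, 10 calls became 16 by DESeq2, 24 with every gene of at least 1 count, 5 with effective length offsets, 4 by limma-trend with either pseudocount, and 25 without both replicates numbered 1, and ranged from 2 to 20 with 1 library left out. Over all genes the 804 calls became 1147 by DESeq2, 1724 with every gene of at least 1 count, 406 with effective length offsets, 372 and 362 by limma-trend, and 1743 without both replicates numbered 1.

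Among single genes, *FOXC1* turned to -0.050 without both replicates numbered 1 and ran from -0.097 to 0.13 with 1 library left out. *MUC1* turned to -0.028 with effective length offsets. *CDH2*, at -0.0089, turned to 0.00048 by DESeq2, 0.00025 with RLE scaling, 0.0051 with at least 10 counts in every library, 0.0033 with effective length offsets and 0.069 without both replicates numbered 1, and ran from -0.043 to 0.078 with 1 library left out. The calls of *ID2*, *EZH2*, *AJUBA*, *MMP2*, *COL6A1*, *COL6A2* and *NT5E* were each lost in 4 to 9 of 15 alternatives, that of *TNC* in 1 and that of *COL5A2* in 0.

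The replicate numbers were taken as names only. Same-numbered libraries deviated from their group means with correlations of 0.318, 0.035 and 0.177 over the tested genes. Those of different number had correlations from -0.314 to 0.196. Whether the numbers pair the samples was therefore not settled. With the replicate number as a block, 0 of the 10 genes and 21 list genes were called, and 1612 genes in all. Not every library was most like the one of its own number in the other medium.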
